A study of Rattus norvegicus with 6 samples.

Results

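Solute carriers are membrane proteins that move sugars, amino acids, ions, metals, nucleotides and vitamins across the plasma membrane and the membranes of organelles. The carriers described here were chosen by name: a probe set belonged if the array's annotation tied it to 1 gene and that gene's current rat symbol begins with Slc followed by a digit. This gave 180 probe sets for 119 genes in 37 families, of 4736 named genes in all. A further carrier gene with 1 probe set was left out by the rule and is not reported here. A family is the number after Slc, and families were grouped into 10 classes by cargo.

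The samples came from the dorsolateral prostate of male rats of the inbred ACI strain, labelled 18 months old, which had been kept for 18 months on a diet either high or low in corn oil. There were 3 rats per diet, with 1 array for each. The labels name no transgene, deletion or drug in either group, and the amount of oil in either diet is not given in the sources used here. The title and source name of high corn oil replicate 3 place it on the high diet and its description on the low diet; it was kept as high.

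Carriers are either secondary transporters, which use the sodium, proton or chloride gradient kept up by ATP-driven pumps, or facilitators, which let a cargo run down its own gradient. The Slc25 family lies mainly in the inner mitochondrial membrane. The dorsolateral lobes of the rat prostate are known for storing and secreting zinc and citrate, so carriers of metals, citrate and aspartate are of particular interest in this tissue.

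An intensity here is the authors' scaled linear signal of a probe set, and it can fall below 0 after their background step. Array medians ran from 573 to 710, and 18.6% to 23.1% of an array's values were at or below 0. All 7 of the 10 listed luminal markers that were measured were above 0 on every array. Their summed intensity reached 295052, 161023 and 153370 for high corn oil replicates 1, 2 and 3 and 268433, 274117 and 248570 in the low corn oil replicates, so high corn oil replicates 2 and 3 were below the other 4 arrays. The secretory genes Pbsn and Msmb carried this: Pbsn read 19851 and 21926 on those arrays and 78113 to 99574 on the others. The keratin gene Krt18 was lowest on those arrays too, at 24173 and 23695 against 29874 to 34742. Over the 7 markers 3 were higher and 4 lower under the high diet, with a median log2 difference of -0.04, and Epcam was higher on every high array (15816 to 18308 against 12239 to 15141). High corn oil replicate 1 also correlated better with the low arrays (Spearman 0.927 to 0.950 over tested probe sets) than with the other high arrays (0.869 and 0.881). Of the 7 measured fibroblast markers, 7 were lower under the high diet, with summed intensities of 57466 to 78434 against 89997 to 125568. Macrophage markers (4 of 7 measured) summed to 8008 to 9585 against 13141 to 17253, and mast cell markers (5 of 6 measured, Cpa3 at or below 0 on 2 or more arrays) to 1348 to 2943 against 5729 to 7294. Most of the mast cell sum was the protease gene Mcpt1l1, at 2308, 2230 and 909 against 6665, 4786 and 5272. It was the only mast cell marker bright enough to test. Cpa3 was also lower on every high array, while Mcpt1, Fcer1a and Kit overlapped between diets. Smooth muscle had 7 of its 8 markers at lower values under the high diet (median log2 difference -0.30). The part of these shifts in any carrier difference was not tested. In bulk tissue, fewer cells of a type and less RNA per cell cannot be told apart.

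Few carriers were bright. A gene was called bright when its brightest probe set was in the top 10% of the array on all 6 arrays, which needed an intensity of 7907 to 8232. By this rule 5 of 119 carriers (4.20%) were bright, against 7.85% of all named genes. At the other end, 28 carriers (23.5%) were at or below 0 on 2 or more arrays, against 21.0% of all named genes, and 86 lay in between. Intensity also depends on the probes, so these bands say how well a carrier was measured and do not rank transcripts by abundance.

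The bright carriers were a zinc exporter, a pair of mitochondrial carriers, an adenine nucleotide carrier of the endoplasmic reticulum and a choline-transporter-like protein. Slc30a2, the zinc transporter ZnT2 that loads zinc into vesicles, read 46521, 25301 and 29696 on the high corn oil arrays and 25435, 35905 and 36064 on the low ones; values below keep this order. Both diets spanned a wide range and overlapped. Slc25a3, the mitochondrial phosphate carrier, read 18506, 28175 and 25488 against 21246, 28824 and 27804. Slc25a5, the ADP/ATP carrier ANT2, read 27445, 23782 and 23890 against 22818, 23685 and 23568, a narrow spread in which the 3 high values lay above the 3 low ones by little. Slc35b1, which brings ATP into the endoplasmic reticulum, read 14907, 16518 and 17149 against 11633, 11866 and 14442 on its brighter probe set. Slc44a4, a choline-transporter-like protein that also carries thiamine pyrophosphate, read 18124, 10401 and 11065 against 10973, 16167 and 13112.

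**Figure D1:**
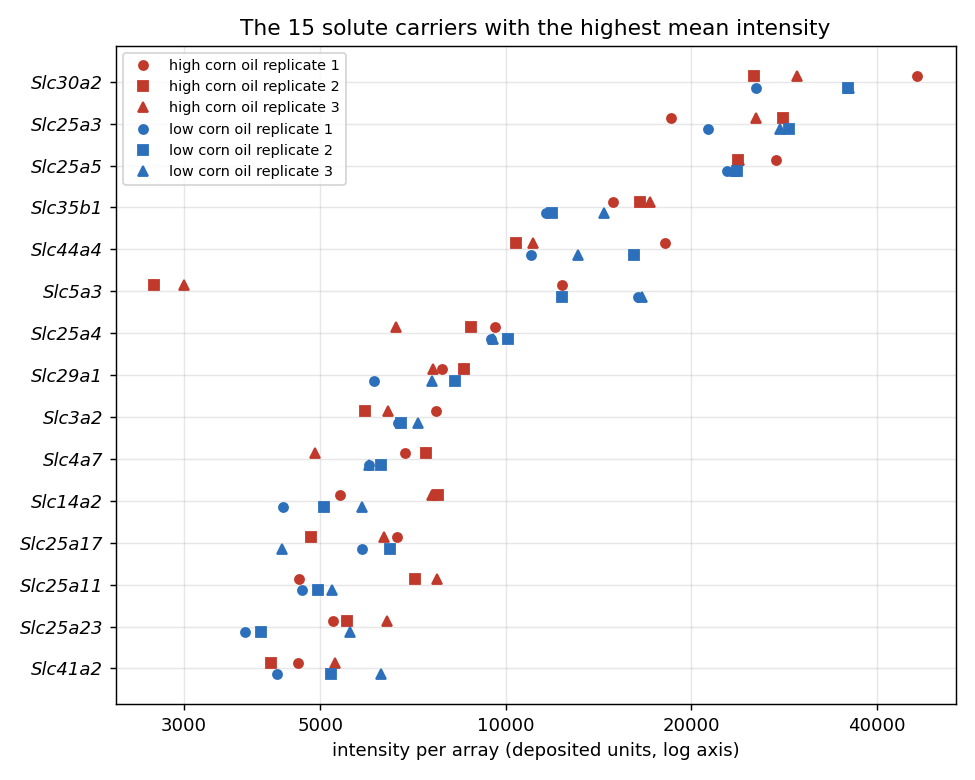
Intensity of the 15 solute carriers with the highest mean, 1 point per array on a log axis, red for high and blue for low corn oil. Most carriers overlap between diets, while Slc5a3 has 2 high corn oil arrays at 2685 and 3002, far below the other 4.

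The next brightest included Slc5a3, Slc25a4, the ADP/ATP carrier ANT1 that is abundant in muscle, and Slc29a1, the equilibrative nucleoside transporter ENT1. The mean of Slc25a4 was 8342 ± 1528 (SD, n = 3) with high and 9690 ± 342 with low corn oil, and that of Slc29a1 was 8017 ± 486 and 7331 ± 1104. The tissue held striated muscle RNA as well: 9 of 10 skeletal muscle markers were measured, with summed intensities of 17988 to 41168 under the high and 28698 to 37068 under the low diet, of which Myh2 and Tnni2 were at or below 0 on 2 or more arrays. How much of the Slc25a4 signal came from muscle was not tested. Slc3a2, the heavy chain that carries amino acid transporters to the cell surface, averaged 6685 ± 926 and 6876 ± 276.

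**Figure D2:**
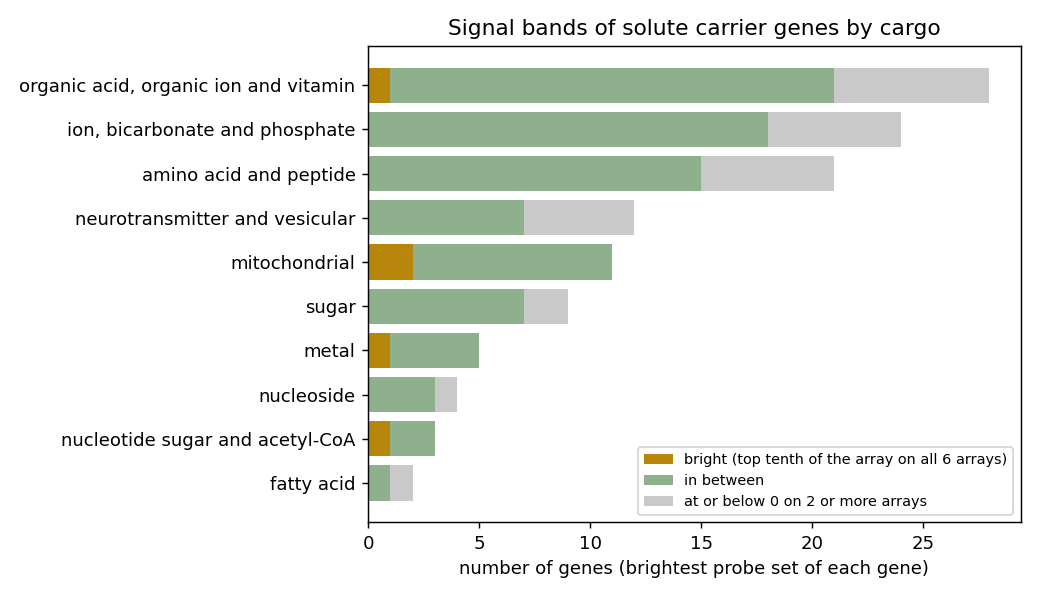
Number of solute carrier genes in each cargo class, split into bright, intermediate and those at or below 0 on 2 or more of 6 arrays. The 11 mitochondrial, 5 metal and 3 nucleotide sugar and acetyl-CoA carriers have none in the lowest band, while 5 of 12 neurotransmitter and vesicular carriers lie there.

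By cargo, 0 of 11 mitochondrial, 0 of 5 metal and 0 of 3 nucleotide sugar and acetyl-CoA carriers fell in the lowest band. In contrast, 5 of 12 neurotransmitter and vesicular carriers did, among them Slc17a7, a vesicular glutamate transporter, and Slc6a13, a GABA transporter. The plasma membrane citrate and sulfate family Slc13 was in the lowest band in all 3 members measured, and the sodium-iodide symporter Slc5a5 was at or below 0 on all 6 arrays. Slc1a1, the glutamate and aspartate transporter EAAC1, was intermediate on its brightest probe set, at 1325, 784 and 1039 against 803, 1163 and 1235. Slc25a1, the mitochondrial citrate exporter, read 3763, 3778 and 3672 against 3603, 4735 and 4760.

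Zinc export had 3 genes on the array. Beside the bright Slc30a2, Slc30a1, the zinc exporter ZnT1 of the plasma membrane, read 173 to 492 under the high and 206 to 414 under the low diet, and Slc30a4, another vesicular zinc exporter, 228 to 623 and 258 to 469. Zinc-responsive genes are known to be switched on by the factor MTF-1 through metal response elements. The core letters TGCACNC or TGCGCNC, searched on both strands with overlapping matches counted, stood 2 times each in the 250 bases before the RefSeq start of Slc30a2, Slc30a1 and Slc30a4. The same letters stood at least 1 time in 20.6% of all 33469 such windows and in 31.5% of the 111 windows of carriers. Those windows were matched for 100 of the 119 genes. The share of windows with 2 or more matches was not computed. A match is a description and not a site. The windows of Slc30a2 (GRCr8, chr5:151843201-151843450, plus strand, the upstream of its 2 starts) and Slc30a1 (GRCr8, chr13:106021769-106022018, plus strand) are shown because they belong to the bright exporter and to the exporter of the plasma membrane, with the matched letters, on either strand, in capitals:
Slc30a2: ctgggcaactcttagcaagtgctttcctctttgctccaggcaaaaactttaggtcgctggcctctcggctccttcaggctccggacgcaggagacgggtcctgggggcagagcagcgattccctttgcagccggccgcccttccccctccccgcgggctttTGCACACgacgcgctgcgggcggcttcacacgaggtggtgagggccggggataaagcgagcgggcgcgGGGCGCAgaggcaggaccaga
Slc30a1: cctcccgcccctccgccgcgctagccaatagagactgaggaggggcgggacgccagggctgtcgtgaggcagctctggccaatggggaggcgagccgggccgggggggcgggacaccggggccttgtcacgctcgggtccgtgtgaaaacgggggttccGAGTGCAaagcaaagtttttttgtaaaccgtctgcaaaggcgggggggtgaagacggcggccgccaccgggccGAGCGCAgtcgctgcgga

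The comparison of diets asks which carrier transcripts are at another level in prostates of rats fed more corn oil. Of the 119 genes, 79 (103 probe sets) had a mean intensity of at least 343, the 40th percentile, and were tested; 40 genes did not pass and have only values. No carrier passed. With limma, p-values being adjusted by Benjamini-Hochberg over 5244 probe sets, 0 of 103 carrier probe sets passed an adjusted p of 0.05, where 0.0% of all probe sets did, and the smallest adjusted p among carriers was 0.462. At an unadjusted p under 0.05 there were 7 of 103 carrier probe sets (6.80%), a smaller share than the 9.95% of all tested probe sets. Of these 7, 5 were higher under the high diet (4.85%, against 5.15% of all) and 2 lower (1.94%, against 4.81%). The 3 high values all lay above the 3 low ones in 11 carrier probe sets (10.7%, against 8.83% of all) and all below in 2 (1.94%, against 6.71%). These shares lay near or below the background, apart from the slightly larger share with all high values above. The count at an unadjusted p under 0.05 rested on single arrays: leaving out high corn oil replicate 1 gave 22, and leaving out replicate 2 or 3 of that diet gave 4. Leaving out low corn oil replicate 3 gave 13 and replicate 2 of that diet gave 3.

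Taking the brightest probe set of each gene, 44 of 79 carriers (55.7%) were higher and 35 lower, and 55.8% of all 3162 tested genes were higher. The median log2 difference, high minus low on the scale of log2(intensity + 156.1), was 0.04 for carriers and 0.05 for all tested genes. The median size regardless of sign was 0.26 and 0.24. At least 1 log2 unit separated the diets in 10 of 103 carrier probe sets (9.71%) and in 6.29% of all. Single arrays weighed on most values: of the 40 named genes, 31 moved by over 1.5 times or lost their sign when 1 array was left out, 11 of them losing the sign. Moving high corn oil replicate 3 to the low diet did so for 26.

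**Figure D3:**
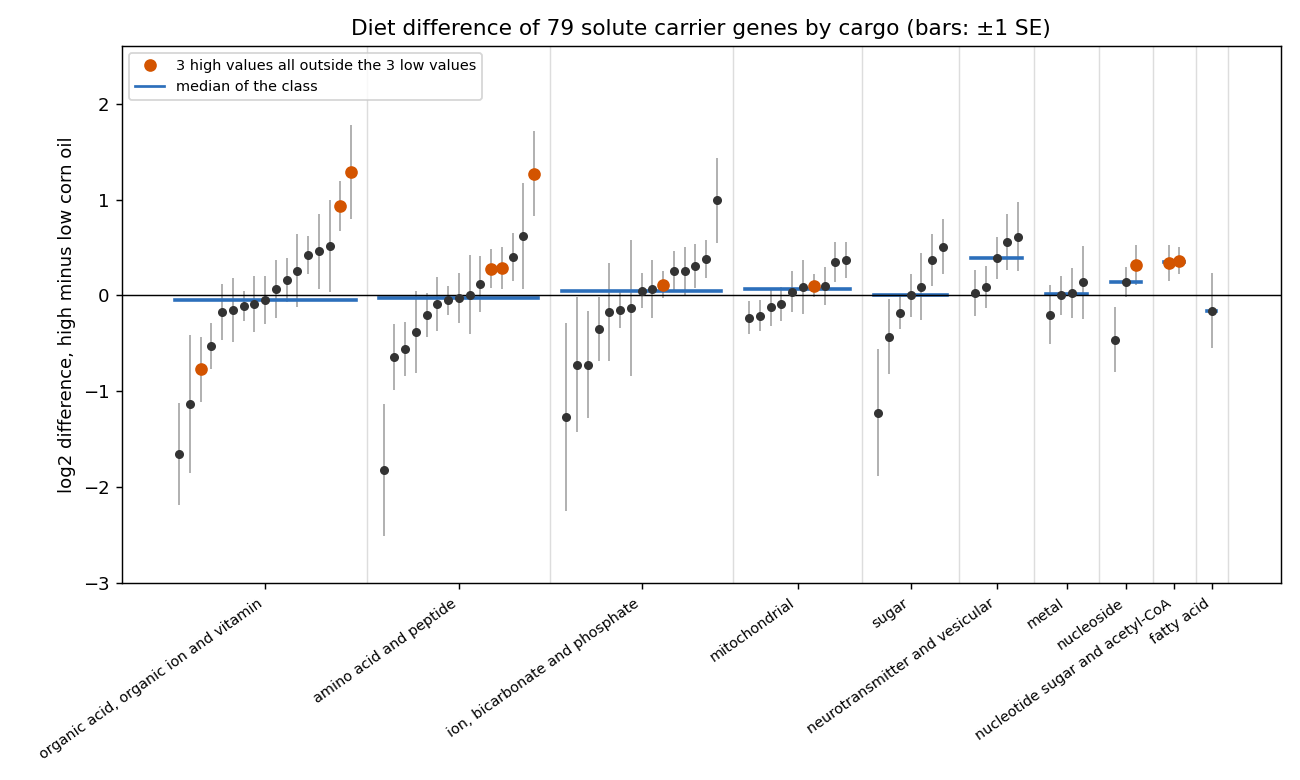
Log2 difference (high minus low corn oil, ±1 SE, 3 arrays per diet) of 79 tested carriers, ordered within cargo classes; blue lines are class medians and orange points carriers whose 3 high values lie outside the 3 low ones. Class medians lie between -0.16 and 0.39, and the largest single differences are negative, Slc6a6 at -1.82 and Slc5a3 at -1.65.

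The carriers of 2 organic osmolytes were among the lowest. Slc5a3, the sodium/myo-inositol cotransporter, read 12332, 2685 and 3002 in high corn oil replicates 1, 2 and 3 and 16375, 12329 and 16632 in the low corn oil replicates. Replicates 2 and 3 of the high diet were far below all others, while replicate 1 matched the lowest low array, so the groups just overlapped. The log2 difference was -1.65 ± 0.53 (SE; limma adjusted p = 0.475). Slc6a6, the taurine transporter, read 746, -303 and 37.5 against 1179, 1157 and 536, with the same 2 arrays lowest and 1 of them below 0. Its log2 difference of -1.82 ± 0.69 (limma adjusted p = 0.480) depends on setting that value to 0, and it was -2.83 and -0.91 with a pseudocount 4 times smaller and 4 times larger.

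A second probe set of Slc7a1, the cationic amino acid transporter CAT1, was also lowest on high corn oil replicates 2 and 3, at 1745, 556 and 301 against 1406, 1886 and 1407. It was singled out after its values were seen. The other 2 probe sets of Slc7a1 were at log2 differences of 0.44 and -0.20, against -1.0 here. Without high corn oil replicate 1, 4 of 103 carrier probe sets passed limma's test, 3.88% against 4.08% of all probe sets: Slc5a3 at -2.34 ± 0.18 (adjusted p = 0.00823), Slc6a6 at -2.62 ± 0.42 (0.0328), this Slc7a1 probe set at -1.58 ± 0.28 (0.0426) and Slc22a6 at 1.15 ± 0.20 (0.0428). The 2 remaining high arrays are the lowest for Pbsn, Msmb and Krt18. Epcam, Krt19, Krt8 and Tgm4 did not have both of them as their lowest arrays. The part of this in the difference was not tested. When high corn oil replicate 3 was moved to the low diet, as its description has it, Slc5a3 was at -0.78, Slc6a6 at -0.89 and Slc22a6 at 0.42.

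**Figure D4:**
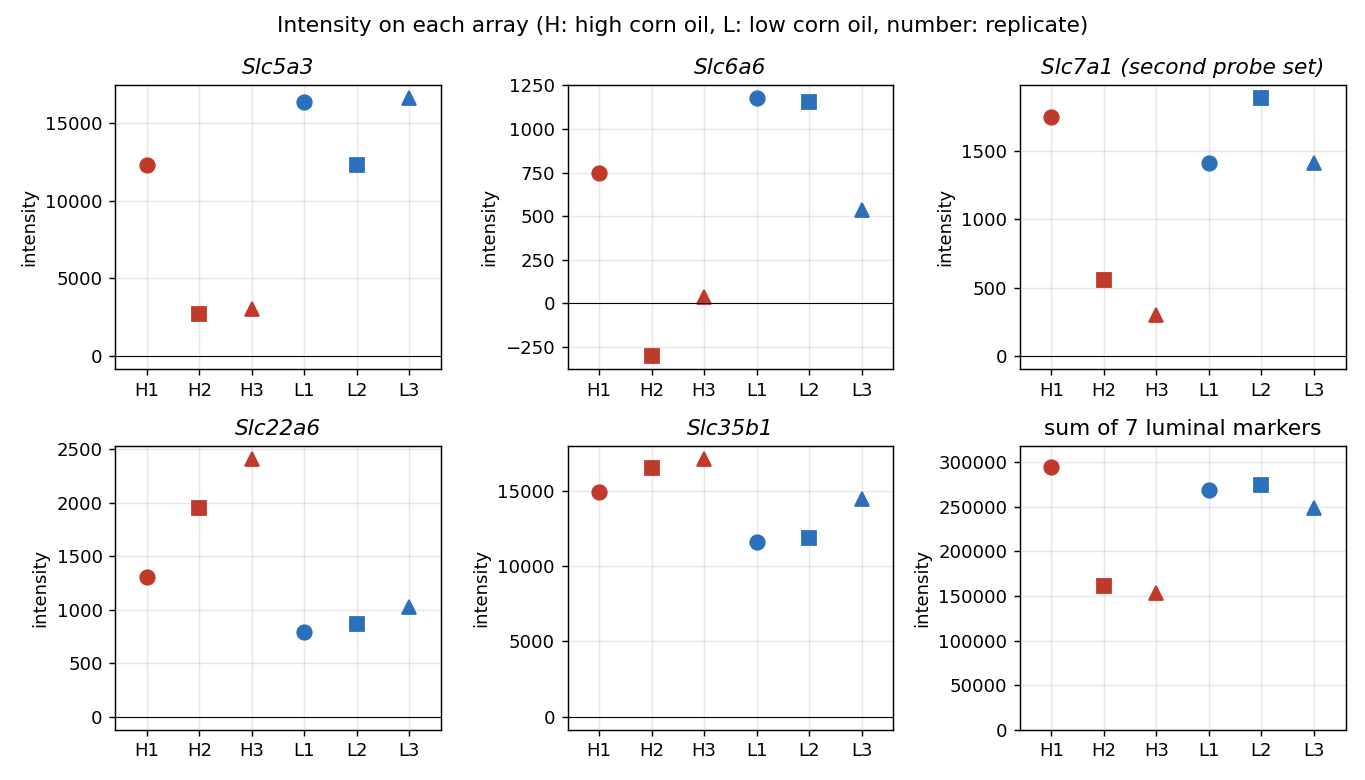
Intensity on each of the 6 arrays for Slc5a3, Slc6a6, a second probe set of Slc7a1, Slc22a6 and Slc35b1, with the summed intensity of 7 luminal markers. High corn oil replicates 2 and 3 are the lowest arrays for Slc5a3, Slc6a6, Slc7a1 and the marker sum, and Slc22a6 and Slc35b1 have all 3 high values above the 3 low ones.

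Both osmolyte carriers are known targets of the tonicity factor NFAT5, whose element has the core TGGAAA. In the 250 bases before the start, the core stood 1 time in the window of Slc6a6, on the minus strand, and 0 times in that of Slc5a3; it stood in 19.7% of all windows and 10.8% of carrier windows. Absence from this window says only that these letters are not in it. The windows of Slc6a6 (GRCr8, chr4:125752252-125752501, plus strand) and Slc5a3 (GRCr8, chr11:44799537-44799786, plus strand) are shown because, over the brightest probe set of each gene, these carriers had the 2 largest differences, with the core in capitals:
Slc6a6: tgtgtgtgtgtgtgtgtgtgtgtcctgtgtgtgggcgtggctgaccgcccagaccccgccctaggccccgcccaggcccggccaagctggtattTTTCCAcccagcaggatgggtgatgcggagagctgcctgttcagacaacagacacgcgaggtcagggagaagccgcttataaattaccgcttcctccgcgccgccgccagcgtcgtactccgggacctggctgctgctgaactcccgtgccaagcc
Slc5a3: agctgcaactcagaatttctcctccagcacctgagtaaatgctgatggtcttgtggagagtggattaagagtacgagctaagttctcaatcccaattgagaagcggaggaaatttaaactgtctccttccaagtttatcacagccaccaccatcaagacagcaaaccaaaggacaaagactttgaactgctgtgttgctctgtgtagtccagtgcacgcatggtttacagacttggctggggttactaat

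Organic ion carriers went both ways. Slc22a6, the organic anion transporter OAT1 best known from kidney, read 1304, 1947 and 2410 against 792, 866 and 1023. The groups did not overlap, and the log2 difference of 0.93 ± 0.26 (limma adjusted p = 0.462) had the smallest p of all carriers. Slc22a7, the related OAT2, was lower on every high array on its brighter probe set, at 327, 819 and 981 against 1200, 1175 and 1323. That difference of -0.77 ± 0.34 was -0.40 without high corn oil replicate 1. A dimmer probe set of Slc22a7 overlapped, at -727, -526 and 1686 against -597, 299 and 215, and was at or below 0 on 3 arrays. Slc22a5, the carnitine transporter OCTN2 that supplies fatty acid oxidation, read 1254, 1405 and 1294 against 1384, 2182 and 2527, a difference of -0.53 ± 0.24. Slc10a2, the sodium-dependent bile acid transporter, read 529, 906 and 1230 against 399, 51.4 and 438, with a difference of 1.29 ± 0.49 that was 0.80 without low corn oil replicate 2. A dimmer, untested probe set of Slc10a2 overlapped, at 22.3, 51.0 and 134 against 11.6, -33.2 and 30.6. Over the class of organic acid, organic ion and vitamin carriers, 8 of 17 tested genes were higher and 9 lower, with a median of -0.05. Slc14a2, a urea transporter, was at 0.42 ± 0.20, averaging 6902 ± 1329 (SD, n = 3) against 5084 ± 752 on its brighter probe set. The other probe set of Slc14a2 was below 0 on all 6 arrays. Slc16a6, a monocarboxylate transporter family member, was at -0.15 ± 0.33.

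Of the 3 genes of the nucleotide sugar family 2 were tested, and both had separate groups on their brightest probe set. All 3 high values lay above the 3 low ones in 8.83% of all tested probe sets. Slc35b1 was at 0.36 ± 0.14 on its brighter probe set (limma adjusted p = 0.494), a mean of 16191 ± 1156 (SD, n = 3) against 12647 ± 1559. Its other probe set read 8624, 9768 and 9811 against 6763, 6138 and 8889 and gave 0.38, a like value, although those groups overlapped. Slc35a1, which imports CMP-sialic acid into the Golgi for glycoprotein sialylation, read 5530, 5064 and 5201 against 3119, 4771 and 4716. Its log2 difference of 0.34 ± 0.19 (limma adjusted p = 0.534) was 0.14 without low corn oil replicate 1, its lowest array.

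Amino acid and peptide carriers had no common direction, with 7 of 15 tested genes higher, 8 lower and a median of -0.03. Slc1a3, the glutamate transporter GLAST, read 492, 1113 and 764 against 64.4, 308 and 370, a difference of 1.27 ± 0.44 at dim values (limma adjusted p = 0.480). Slc7a5, the light chain LAT1 that imports large neutral amino acids, read 1213, 1017 and 555 against 1395, 2126 and 1065, a difference of -0.64 ± 0.34 that was -0.36 if high corn oil replicate 3 was left out and -0.40 if low corn oil replicate 2 was, and -0.06 with the disputed high corn oil replicate 3 moved to the low diet. Its partner Slc3a2 was at -0.05 ± 0.15 on the brighter probe set and at -0.40 on the other, where the high values of 5744, 5257 and 3841 all lay below the low values of 6430, 5880 and 7195. All 3 tested members of the proton-coupled peptide family Slc15 were higher on their brightest probe set, from 0.12 to 0.40, where 55.8% of all tested genes were higher. The 0.12 was that of Slc15a1. Its dimmer, untested probe set went the other way, at -5.8, 68.6 and -30.3 against 85.4, 74.0 and 81.5. Slc15a4, a lysosomal histidine and peptide transporter, was at 0.40 ± 0.25, with 0.25 when high corn oil replicate 1 was left out and 0.22 when low corn oil replicate 1 was. Slc15a2, the peptide transporter PEPT2, read 1340, 1379 and 1334 against 1304, 880 and 1114, and its difference of 0.28 ± 0.20 was 0.15 when low corn oil replicate 2 was left out. Slc6a5, a glycine transporter, was at 0.29 ± 0.22 with groups that did not overlap, at 726 to 898 against 583 to 694.

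Mitochondrial carriers showed small differences. Of 10 tested members 6 were higher and 4 lower, with a median of 0.06 and a range of -0.23 to 0.37. Slc25a23, a calcium-regulated ATP-Mg/phosphate carrier, was at 0.37 ± 0.19, reading 5246, 5521 and 6418 against 3766, 4000 and 5581. Slc25a11, the oxoglutarate/malate carrier, was at 0.35 ± 0.21 on its brighter probe set, with 0.57 and 0.21 when high corn oil replicate 1 or 3 was left out, and -0.01 on the other. Slc25a4 was at -0.23 ± 0.17, Slc25a1 at -0.21 ± 0.16, Slc25a3 at -0.12 ± 0.20, Slc25a5 at 0.10 ± 0.12 and the peroxisomal carrier Slc25a17 at 0.10 ± 0.20. The ADP/ATP carriers ANT1 and ANT2 are close paralogs, so probes may not separate them fully.

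Among sugar carriers 4 of 7 tested genes were higher and 3 lower, with a median of 0.0. Slc2a5, the fructose transporter GLUT5, read 3610, 1783 and 2882 against 1437, 2299 and 1796, a difference of 0.51 ± 0.29 that was 0.78 if high corn oil replicate 2 was left out and 0.30 if replicate 1 of that diet was. The widespread glucose transporter Slc2a1 averaged 2343 ± 540 (SD, n = 3) and 2317 ± 361. The insulin-responsive Slc2a4, found in muscle and fat, was at -0.43 ± 0.39, with -0.83 and -0.15 when high corn oil replicate 2 or 3 was left out and 0.11 with replicate 3 moved to the low diet.

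Ion, bicarbonate and phosphate carriers split evenly, 8 of 15 higher and 7 lower, with a median of 0.05. Slc4a2, an anion exchanger of epithelia, read 3985, 4071 and 4148 against 3848, 3887 and 3510, without overlap but with a difference of only 0.11 ± 0.14. Slc4a7, a sodium bicarbonate cotransporter, was at 0.05 ± 0.18, and Slc12a2, the sodium-potassium-chloride cotransporter NKCC1 of secretory epithelia, at 0.31 ± 0.23, with 0.53 and 0.14 when low corn oil replicate 1 or 3 was left out. The magnesium transporter Slc41a2 was at -0.15 ± 0.19. Slc4a1, the anion exchanger of red blood cells, was at 0.26 ± 0.25, with 0.06 when high corn oil replicate 2 was left out; the 3 measured red blood cell markers summed to 23397 to 31651 under the high and 25772 to 52124 under the low diet. Slc12a4, a potassium-chloride cotransporter, was at 0.99 ± 0.44 on its tested probe set (0.58 without low corn oil replicate 1), reading 877, 1094 and 522 against 115, 434 and 540. A dimmer probe set of Slc12a4 went the other way, at -203, -554 and -445 against 197, 184 and 145. With no filter on low values it passed limma's test (-1.08 ± 0.07, adjusted p = 0.0325), a result that rests on setting the 3 high values to 0.

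Metal carriers showed small differences, 2 of 4 higher and 2 lower, from -0.20 to 0.14. Slc30a2 was at 0.03 ± 0.26, a sign that turned to -0.22 without high corn oil replicate 1 and to -0.01 after quantile normalization. The intestinal iron and metal importer Slc11a2 averaged 2935 ± 525 (SD, n = 3) and 2937 ± 465. The iron exporter Slc40a1 was at -0.20 ± 0.31 and Slc30a4 at 0.14 ± 0.38. Among nucleoside carriers, Slc29a2, the transporter ENT2, read 1329, 1834 and 1413 against 1255, 997 and 1323 and was at 0.32 ± 0.21 (0.19 and 0.21 when replicate 2 of the high or of the low diet was left out), while Slc29a1 was at 0.14 ± 0.16.

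The neurotransmitter and vesicular class had 5 of 5 tested genes higher, with a median of 0.39, and none had separate groups. Only these 5 of its 12 genes were tested, and 55.8% of all tested genes were higher. The tested genes ran from Slc6a8, the creatine transporter, at 0.03 to the dopamine transporter Slc6a3 at 0.61, whose other probe set was at -0.12. Slc18a3 was at 0.39, and its other probe set at -0.19. Of 7 nerve markers 6 were measured, with summed intensities of 2829, 5500 and 5427 under the high and 4029, 3179 and 3391 under the low diet, and Gap43 and Nefm at or below 0 on 2 or more arrays. High corn oil replicates 2 and 3 had the highest sums, and their part in the class was not tested.

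Among carriers of fatty acids and lactate, 2 were too dim to test. Slc27a2, a fatty acid transport protein with very-long-chain acyl-CoA synthetase activity, was at -616, -609 and -1118 against 472, 490 and 259. The 3 low values were above 0 and the 3 high values below it, so no fold is given. Slc16a1, the monocarboxylate transporter MCT1, read 144, 104 and 7.5 against 471, 282 and 449, again without overlap. Both had a mean below the filter of 343. A dimmer probe set of Slc16a1 overlapped between diets and was at or below 0 on 5 arrays. Other untested carriers separated the other way, among them Slc12a1, at 170, 89.8 and 246 against 18.8, -44.1 and -45.7, and Slc18a1. The share of untested probe sets with separate groups was not computed. The lactate exporter Slc16a3 (MCT4) was tested at 0.07 ± 0.30, Slc16a7 (MCT2) at -0.09 ± 0.29 and the fatty acid carrier Slc27a1 at -0.16 ± 0.39, each with overlapping groups.

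Different probe sets of one carrier did not always give the same direction. Of 119 carriers 43 had several probe sets, and 19 had at least 2 that were tested. In 10 of these 19 all tested probe sets lay on the same side of 0, and in 9 they did not. The share among all genes with several probe sets was not computed. In some of the 9 the sides turned on a value near 0. The probe sets of Slc2a1 were at 0.0 and -0.02, and those of Slc25a11 at 0.35 and -0.01. Those of Slc35b1 and Slc4a1 stood together, at 0.36 and 0.38 and at 0.26 to 0.49, while those of Slc34a1, a sodium-phosphate cotransporter, ran from -0.17 to 1.78 and those of Slc1a1 from -0.03 to 1.37.

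**Figure D5:**
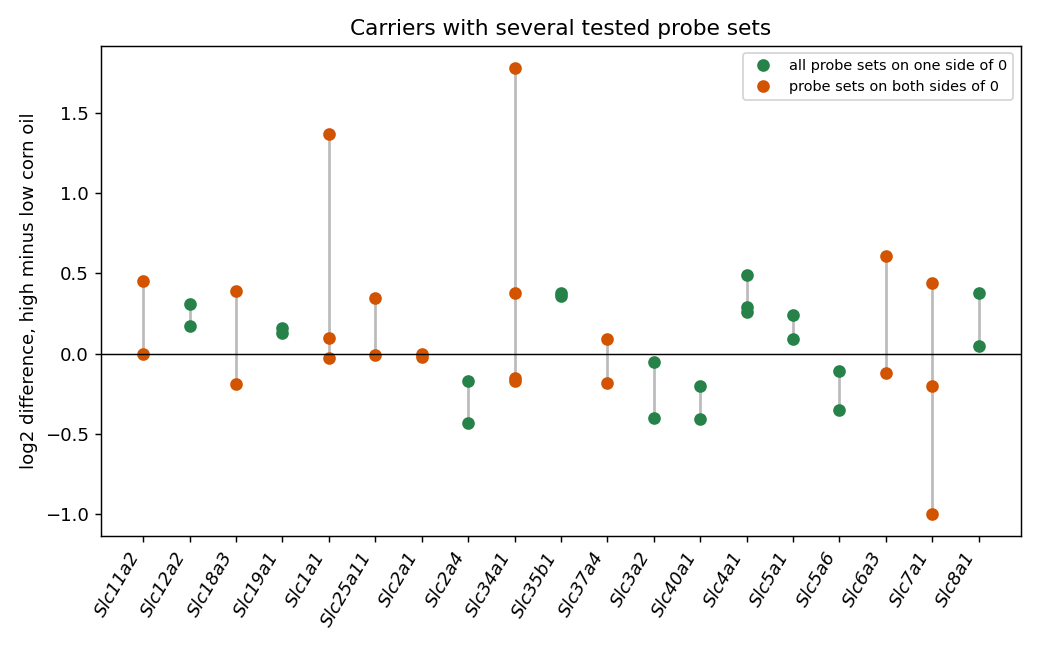
Log2 difference (high minus low corn oil) of each tested probe set for the 19 carriers with several, green where all lie on one side of 0 (10 genes) and orange where they do not (9 genes). The widest spans are those of Slc34a1, from -0.17 to 1.78, Slc7a1, from -1.0 to 0.44, and Slc1a1, from -0.03 to 1.37.

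The pumps and partners of the carriers had no member past the test. Of the sodium pump, which builds the gradient that many carriers use, 2 of 4 tested genes were higher and 2 lower. The vacuolar proton pump had 4 of 5 higher with a median of 0.08, and calcium pumps had 3 of 5 higher with a median of 0.0. Basigin (Bsg), the chaperone of monocarboxylate transporters, was at 0.01 ± 0.14, and Emb, the related embigin, at 0.40 ± 0.28. Of the organic anion carriers named Slco 1 of 2 was higher, and of ABC transporters 3 of 5. Of these 23 tested genes 0 passed limma's adjusted threshold and 4 (17.4%) had an unadjusted p under 0.05, against 9.95% of all tested probe sets. The 2 tested partners were both higher, and neither of the 2 copper pumps on the array was bright enough to test. The ABC transporter Abcd3, which takes fatty acyl-CoA into peroxisomes, read 34184, 7871 and 12563 against 30985, 35350 and 38145, with high corn oil replicates 2 and 3 lowest as for Slc5a3. Another ABC transporter, Abcc9, a subunit of ATP-sensitive potassium channels, went the other way, at 1733, 4866 and 4193 against 1424, 1657 and 992, with the same 2 arrays highest. Atp1b1, a beta subunit of the sodium pump, was lower on every high array, at 29270, 27680 and 22773 against 39199, 37645 and 38505. Its log2 difference was -0.54 ± 0.14 (limma adjusted p = 0.462). Atp1b2, another beta subunit, was at 0.65 ± 0.25. These 4 were the genes with an unadjusted p under 0.05, named after their values were seen.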

How the data were processed

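Total RNA from 6 dorsolateral prostates was extracted with Trizol, labelled as biotinylated cRNA and hybridized to a rat short-oligonucleotide array of 8799 probe sets, per the labels' protocols. The deposited intensity values, 1 per probe set and array, were scaled by the authors; MAS5 is the only tool in the submitters' processing notes, and its settings are not given in the sources used here. Values below 0 are not usual for that tool, so the background step is unknown. Of the probe sets, 7006 had 1 gene; 6985 of these were renamed by gene identifier to GRCr8 symbols. No symbol of a carrier changed, and 2 probe sets naming a carrier among several genes were not used.

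Values below 0 were set to 0 and transformed as log2(value + 156.1), the median of all values (624.6) divided by 4. Non-control probe sets with a mean at or above the 40th percentile (343) were tested with limma 3.58.1 in R 4.3.3 (lmFit, eBayes with trend, two-sided), Benjamini-Hochberg adjusted over 5244 probe sets. On simulated data for this comparison with 5244 probe sets, of which 200 were changed, 30.5% of changes of 1 log2 unit, 81.5% of 2 and 91.5% of 3 were recovered. There were 8, 6 and 10 false calls. Each simulated probe set varied independently, so shifts shared across an array were absent and recovery in the real data may differ. With 3 arrays for each diet, their number limits the precision. Diets came from the titles; p-values measure the spread between these rats.

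A gene was represented by its brightest probe set. Named were 40 genes: up to 12 per direction with separate groups (10 higher and 1 lower found), the 15 brightest, the smallest p in families of 3 or more tested genes, and 15 tested genes of a fixed list of 24. Values are also given for carriers outside these 40, among them Slc6a3, Slc7a1, Slc27a2 and Slc34a1. Counts over the 40 named genes do not cover them. The members and lists were chosen with earlier results of these data known. Promoter windows came from a RefSeq table of GRCr8. Alternatives changed the pseudocount, floor, filter, normalization, trend, weights, blocks, the diet of high corn oil replicate 3, the probe set summary and the arrays included.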

Additional observations from a re-analysis of the deposited data

How the results depend on the processing

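The number of carrier probe sets past limma's adjusted threshold was 0 in every setting except no filter on low values, with 1, and leaving out an array, with 0 to 4 (4 without high corn oil replicate 1). Over all probe sets these counts were 9 with no filter and 0 to 214 leaving out an array, and 0 otherwise. At an unadjusted p under 0.05 there were 7 carrier probe sets, against 12 with no filter, 3 with the filter at the 60th percentile, 29 with array weights, 3 when the third high array was taken as low, as its description has it, and 3 to 22 leaving out an array; the cause of these shifts was not tested, other than that filters change how many probe sets enter. With a replicate block there were 10. Deviations of same-numbered arrays from their diet means correlated at -0.0538, -0.203 and 0.180, and those of differently numbered arrays at -0.163 to 0.269. So few correlations cannot decide whether replicate numbers pair the arrays. The median log2 difference of carriers, 0.036, stayed between 0.004 and 0.092, within the spread between arrays (SD 0.069). Of the 40 named genes, 26 kept their sign in every setting run. All of these named genes were tested. Separately, 40 of 119 carriers had signals too low to test.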
